A study of Rattus norvegicus with 9 samples.

Results

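The genes described here encode proteins of the sarcomere and of its Z-disc, measured as mRNA in the tibialis anterior muscle (TIB) of fed and fasted rats. The set was given as 49 gene names, and a gene counted as measured where a probe set of the array was annotated to it and to no other gene. This held for 41 of the 49 genes, among 14506 genes and 29215 probe sets in all, and each of the 41 had 1 such probe set. No value is given for Neb, Lmod3, Myl6b, Myoz3, Tcap, Flnc, Myom2 and Myom3. Mylpf, the fast myosin regulatory light chain, was measured under its current name Myl11.

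The sarcomere is the contractile unit of striated muscle, in which thin filaments of actin slide along thick filaments of myosin. The thin filaments carry tropomyosin and the troponin complex, which makes contraction depend on calcium, and are anchored in the Z-disc through alpha-actinin, while the thick filaments are joined in the M-band and tethered to the Z-disc by titin. Many of these proteins come as slow and fast isoforms encoded by separate genes, and tibialis anterior is a muscle made largely of fast fibres.

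The study compared male Sprague Dawley rats in 3 states, with 3 rats and 1 Affymetrix Rat Gene 1.0 ST array per rat in each. Fed rats had a full stomach when sampled, P2 rats had fasted until phase 2 (the phase of protein sparing) and P3 rats until phase 3 (the phase of accelerated protein loss), and the P3 rats were killed on the day after that phase began. All rats had water throughout. The samples were pieces of whole muscle, so that fewer cells of a type and less RNA per cell cannot be told apart, and phase and length of fast went together. P2 and P3 were both compared with the same 3 fed rats, and P3 was also compared with P2.

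Values are log2 probe set intensities. They order the rats for 1 gene, but levels of different genes cannot be set against each other. Array medians lay between 5.80 and 5.90 and correlations between arrays of a group between 0.987 and 0.994. The 7 measured markers of skeletal muscle fibres (Ckm, Ryr1, Mb and others) all lay above the 99th percentile of the array. In P3 against Fed, where 13.4% of all probe sets were called lower (adjusted p of limma under 0.05), all 7 had negative log2 fold changes. Of the 7, 3 were called lower, Pvalb (−1.87), Mb (−0.81) and Eno3 (−0.39). The log2 of the summed intensities of the 7, in which the brightest markers weigh most, lay between 16.11 and 16.13 in Fed. It lay between 15.98 and 16.04 in P2 and between 15.74 and 15.79 in P3. That of 4 satellite cell markers lay between 9.55 and 9.74 in Fed, between 9.14 and 9.43 in P2 and between 8.55 and 8.74 in P3, with 2 of the 4 lower in P3. The part of these shifts in the values of the sarcomere genes was not tested. The median over the 41 genes was 11.94, with 5.87 over all probe sets, and 21 of them lay above the 99th percentile of the array, which was 11.85. The highest value of any array was 14.00. Array intensities level off at the top of their range, and the part of this in the small fold changes of the brightest probe sets was not tested. Of the 8 genes with a fed mean of at least 13, 2 were called in P3 against Fed, and the largest change of the 8 was 0.33 in size. Of the 33 dimmer genes 25 were called, where 29.2% of all probe sets were.

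Promoters of 5 of these genes are shown because they match a motif of a factor of muscle transcription and because the genes behaved differently. Acta1, Myl3 and Ldb3 match the CArG box, the element bound by serum response factor, and Klhl40 and Klhl41 match the pattern of a box of the MEF2 family. Each line is the 250 bases before the start of the gene in RefSeq (rat build GRCr8), written 5′ to 3′ on the strand of the gene, with the motif in capitals.
Acta1 (chr19:68784195-68784444, minus strand): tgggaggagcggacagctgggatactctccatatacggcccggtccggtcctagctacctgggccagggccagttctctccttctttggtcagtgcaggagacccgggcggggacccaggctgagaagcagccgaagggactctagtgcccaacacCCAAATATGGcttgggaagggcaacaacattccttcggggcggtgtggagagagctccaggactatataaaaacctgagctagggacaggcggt
Myl3 (chr8:119616844-119617093, plus strand): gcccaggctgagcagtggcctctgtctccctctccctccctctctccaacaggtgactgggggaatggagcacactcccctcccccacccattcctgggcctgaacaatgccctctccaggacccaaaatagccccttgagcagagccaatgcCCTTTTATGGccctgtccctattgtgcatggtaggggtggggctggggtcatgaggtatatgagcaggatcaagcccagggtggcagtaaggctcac
Ldb3 (chr16:9924680-9924929, minus strand): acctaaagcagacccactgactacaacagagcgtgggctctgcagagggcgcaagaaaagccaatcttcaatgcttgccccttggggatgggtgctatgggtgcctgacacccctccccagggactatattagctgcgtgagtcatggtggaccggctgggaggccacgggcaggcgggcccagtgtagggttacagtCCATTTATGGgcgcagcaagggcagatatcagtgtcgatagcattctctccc
Klhl40 (chr8:130318543-130318792, plus strand): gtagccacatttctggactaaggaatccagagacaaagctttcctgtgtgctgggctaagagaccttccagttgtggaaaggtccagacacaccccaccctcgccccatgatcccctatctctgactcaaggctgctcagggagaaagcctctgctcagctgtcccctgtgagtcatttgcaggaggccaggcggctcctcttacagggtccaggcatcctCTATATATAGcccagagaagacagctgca
Klhl41 (chr3:74841868-74842117, plus strand): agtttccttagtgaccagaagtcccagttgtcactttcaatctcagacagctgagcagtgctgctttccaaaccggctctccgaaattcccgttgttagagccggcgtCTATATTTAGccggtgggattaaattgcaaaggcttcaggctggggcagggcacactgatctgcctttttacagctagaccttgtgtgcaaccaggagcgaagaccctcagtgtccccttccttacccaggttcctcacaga

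Such a window was at hand for 33 of the 41 genes. Both motifs were searched on both strands, and their patterns read the same on either strand. The CArG box was in 3 of the 33 windows (9.09%), those of Acta1, Ldb3 and Myl3, and in 1.5% of all 33469 windows. The MEF2 box was in 6 of the 33 (18.2%), those of Klhl40, Klhl41, Myl1, Myoz1, Myoz2 and Ttn, and in 2.96% of all windows. The match begins 94 bases before the start in Acta1, 97 in Myl3, 52 in Ldb3, 29 in Klhl40 and 142 in Klhl41. In P3 against Fed the 3 genes with a CArG box had log2 fold changes of −0.11 (Acta1, not called), −1.74 (Myl3) and −2.13 (Ldb3). Myl3 and Ldb3 both fell. The small value is that of Acta1, whose fed mean of 13.97 lay near the highest value of any array (14.00). There the levelling off of intensities was not tested. A match describes the letters in the window and not a site in use. In Klhl40, 29 bases before the start, the pattern cannot tell a MEF2 box from a TATA box.

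Of the 41 sarcomere genes, 56.1% were called lower in P3 rats, where 13.4% of all probe sets were. In P2 rats 17.1% were called lower, where 4.15% of all probe sets were. A gene was called where the adjusted p of limma over all 29215 probe sets was under 0.05. In P2 against Fed 9 of the 41 genes were called, 2 higher and 7 lower, where 9.28% of all probe sets were called (5.13% higher and 4.15% lower; 12.6% of those with 1 gene symbol). In P3 against Fed 27 of the 41 were called (65.9%), 4 higher and 23 lower, where 29.2% of all probe sets were called (15.8% higher and 13.4% lower; 35.3% of those with 1 gene symbol). In P3 against P2 21 were called, 4 higher and 17 lower, where 16% of all probe sets were called (8.5% higher and 7.52% lower; 21.7% of those with 1 gene symbol). The median log2 fold change of the 41 genes was −0.09 in P2 and −0.45 in P3, with medians over all probe sets of 0.01 and 0.00. The 3 P3 rats all lay under the 3 fed rats for 30 genes, an arrangement found for 20.1% of all probe sets, and above them for 5 (in either direction, 42.4% of all probe sets). The 3 P2 rats all lay under the 3 fed rats for 18 genes (10.9% of all probe sets). They lay above them for 5 (in either direction, 24.2% of all probe sets). The count of genes lower in P2 depended on single rats: it dropped to 4 when Fed 1 or Fed 2 was left out and to 3 when Fed 3 or P2 3 was, and the count of genes higher in P2 dropped to 1 when Fed 2, Fed 3 or P2 3 was.

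By role, 10 of 15 genes of the thin filament were called in P3 (1 higher, 9 lower), 6 of 7 of the thick filament (all lower), 6 of 11 of the Z-disc (1 higher, 5 lower), Myom1, the 1 gene measured of the M-band (lower), and 4 of 6 genes that act in sarcomere assembly or regulation (2 higher, 2 lower). Titin, Ttn, was not called. Of all probe sets, 29.2% were called in P3 (15.8% higher and 13.4% lower). In P2 the calls were 2 lower in the thin filament, 3 lower in the thick filament, 1 higher in the Z-disc, and 1 higher and 2 lower in assembly and regulation. The called shares of the Z-disc (9.09%) and thin filament (13.3%) in P2 were close to those of all probe sets (9.28%) and of those with 1 gene symbol (12.6%).

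**Figure D1:**
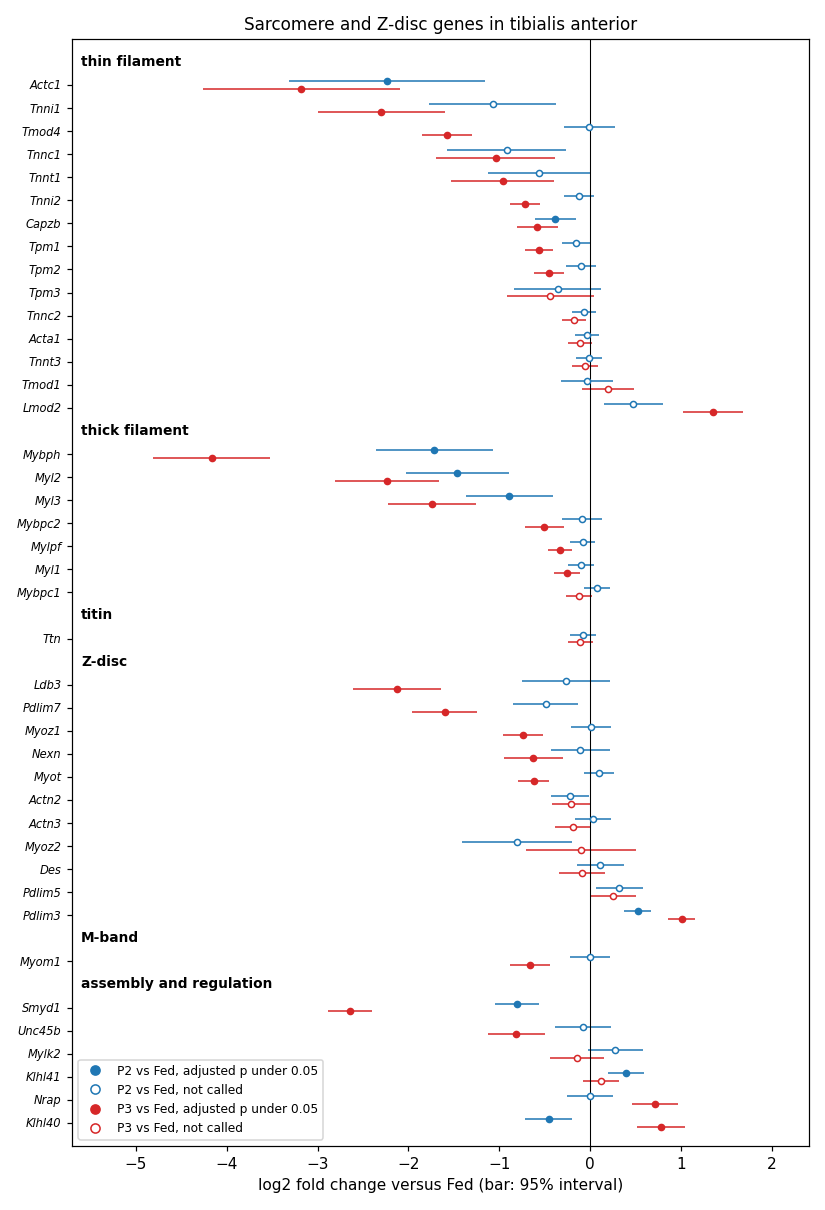
Log2 fold change of each measured sarcomere gene in P2 against Fed and in P3 against Fed, grouped by role, with 95% intervals from limma; filled symbols mark adjusted p under 0.05. In P3 23 genes lie lower and 4 higher by that test, from −4.16 (Mybph) to 1.35 (Lmod2), while most P2 values lie near 0.

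Among the thin filament genes, Actc1, the actin of heart and of developing skeletal muscle, fell most. Its log2 intensity was 9.53, 11.77 and 10.49 in the fed rats, 8.60, 8.36 and 8.12 in the P2 rats, and 7.89, 7.12 and 7.25 in the P3 rats. The fed rats differed widely among themselves, yet the lowest of them lay above every fasted rat. The log2 fold change was −2.24 ± 0.48 in P2 (SE, n = 3 each, adjusted p = 0.0207, limma) and −3.18 ± 0.48 in P3 (adjusted p = 0.000883), a 9.04-fold lower intensity in P3 rats. Without Fed 2, the highest fed rat, the changes were −1.65 in P2 and −2.59 in P3 (adjusted p = 0.000826 for P3). The P2 call was lost without Fed 3 (adjusted p = 0.0622), without P2 2 (0.0566) and without P2 3 (0.0773). Acta1, the actin of adult skeletal muscle, was not called, at 13.88, 13.87 and 13.83 in P3 rats against 13.98, 13.96 and 13.97 in fed rats. Its log2 fold change in P3 was −0.11, with a 95% interval of −0.25 to 0.02, at the top of the intensity scale. Sarcomeric and smooth muscle actin transcripts are much alike, and whether the probe sets of Actc1 and Acta1 also take up each other's RNA or that of Acta2, the smooth muscle actin, was not tested. Acta2 had a log2 fold change of −0.69 in P3 (adjusted p = 0.00572), and 4 of 6 smooth muscle markers were lower in P3, where 13.4% of all probe sets were. The log2 of the summed intensities of the 6 markers lay between 11.95 and 12.27 in Fed. It lay between 11.67 and 12.10 in P2 and between 11.34 and 11.73 in P3. The part of smooth muscle RNA in the Actc1 values was not tested.

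Of the genes whose proteins act at the ends of the thin filament, Lmod2 rose and Tmod4 and Capzb fell in P3, while Tmod1 was not called. Lmod2, a leiomodin that nucleates actin and lets thin filaments grow at their pointed ends, had log2 intensities of 8.92, 8.60 and 8.80 in Fed, 9.07, 9.50 and 9.17 in P2, and 10.13, 9.91 and 10.32 in P3. The 3 groups did not overlap. The log2 fold change was 1.35 ± 0.14 in P3 (adjusted p = 0.000114, a 2.54-fold higher intensity), and 0.47 in P2, which did not pass the test (adjusted p = 0.0811). Tmod4, the tropomodulin that caps the same pointed ends in skeletal muscle, was at 10.97, 10.62 and 11.09 in P3 rats against 12.56, 12.43 and 12.41 in fed rats. It fell by 1.57 ± 0.12 on the log2 scale (adjusted p = 1.67e-05), or 2.98-fold, and in P2 its change was −0.01. Tmod1, the tropomodulin best known from heart and red cells, was not called, with 0.20 in P3. Capzb, the beta subunit of the protein that caps the barbed ends within the Z-disc, fell by 0.39 in P2 rats (adjusted p = 0.0438) and by 0.58 in P3 rats (adjusted p = 0.00188). Its P2 call was lost without any 1 of Fed 1, Fed 2, Fed 3, P2 2, P2 3 or P3 2 (adjusted p from 0.0648 to 0.137).

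Tropomyosin winds along the thin filament and covers the myosin sites of actin. Tpm1, the alpha-tropomyosin of fast fibres, was at 12.52, 12.45 and 12.42 in Fed, 12.37, 12.26 and 12.29 in P2, and 11.92, 11.83 and 11.95 in P3. The groups did not overlap, and the log2 fold change in P3 was −0.56 (adjusted p = 0.00023). Tpm2, beta-tropomyosin, fell by 0.45 in P3 (adjusted p = 0.0013). Tpm3, whose muscle form is the slow alpha-tropomyosin, was at 9.95, 9.67 and 9.94 in Fed, 9.35, 9.84 and 9.28 in P2, and 9.87, 9.13 and 9.24 in P3. It was not called, and P3 1 lay among the fed rats. Without P3 1 its log2 fold change in P3 was −0.67 (adjusted p = 0.0248).

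Troponin I showed the largest fall of the troponin genes in its slow form. Tnni1, the slow inhibitory subunit, was at 9.53, 9.71 and 10.19 in Fed, 8.63, 9.42 and 8.14 in P2, and 7.74, 7.21 and 7.59 in P3. The P2 rats were spread between the other groups, with P2 2 close to the fed rats. The log2 fold change was −2.30 ± 0.31 in P3 (adjusted p = 0.000443, 4.91-fold) and −1.07 ± 0.31 in P2, where it did not pass the test (adjusted p = 0.0648). Without P2 2 the P2 value was −1.42 (adjusted p = 0.0127). Tnni2, the fast form, was at 12.86, 12.82 and 12.79 in Fed, 12.81, 12.64 and 12.65 in P2, and 12.09, 12.03 and 12.18 in P3, so that P3 alone stood apart, lower by 0.72 than Fed (adjusted p = 9.02e-05).

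Of troponin T, which binds the complex to tropomyosin, the slow Tnnt1 was at 10.62, 10.28 and 10.69 in Fed, 10.09, 10.22 and 9.60 in P2, and 10.11, 9.17 and 9.41 in P3. The fed rats lay above all fasted rats, and P2 and P3 overlapped. Its log2 fold change in P3 was −0.96 (adjusted p = 0.0176), a call lost without Fed 1 (adjusted p = 0.0580), Fed 3 (0.0659), P3 2 (0.0639) or P3 3 (0.0639). The fast Tnnt3 stayed between 13.42 and 13.57 on all 9 arrays and was not called. Of troponin C, the calcium sensor, the slow Tnnc1 was at 9.89, 10.08 and 10.11 in Fed, 9.11, 9.51 and 8.71 in P2, and 9.63, 8.45 and 8.88 in P3. Here too fed rats lay highest and P3 1 lay nearest to them. The log2 fold change was −0.92 in P2 (adjusted p = 0.0883) and −1.04 in P3 rats (adjusted p = 0.0234). The P3 call was lost without Fed 2 (adjusted p = 0.0728), Fed 3 (0.0746), P3 2 (0.0744) or P3 3 (0.0738), and without P3 1 the P2 value passed (0.0322). The fast Tnnc2 was at 13.51, 13.47 and 13.48 in P3 against 13.68, 13.67 and 13.64 in Fed. The P3 and fed rats did not overlap, but the change of −0.17 missed the threshold (adjusted p = 0.0501), and passed it without P2 1 (0.0489).

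In the thick filament, Mybph, a myosin-binding protein of the A-band related to myosin-binding protein C, had the largest change of all 41 genes. It was at 10.98, 10.97 and 11.64 in Fed, 10.07, 8.89 and 9.48 in P2, and 6.87, 7.14 and 7.09 in P3. The 3 groups were far apart, and the P2 rats lay between. Mybph fell by 1.71 ± 0.28 in P2 (adjusted p = 0.00671) and fell by 4.16 ± 0.28 in P3 (adjusted p = 7.98e-06), a 17.9-fold lower intensity in P3 rats, and the step between P3 and P2 was −2.45 (adjusted p = 0.000442). Mybpc1 and Mybpc2, the slow and fast forms of myosin-binding protein C, changed far less. Mybpc2 fell by 0.51 in P3 (adjusted p = 0.00334), at 12.24, 12.43 and 12.41 in P3 rats against 12.83, 12.90 and 12.87 in fed rats. Mybpc1, which fast fibres carry as well, was at 12.89, 12.83 and 12.92 in P3 against 13.05, 13.01 and 12.96 in Fed and was not called (−0.13).

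The myosin light chains fell most in their slow forms. Myl2, the slow regulatory light chain, was at 9.14, 9.33 and 9.41 in Fed, 7.66, 8.46 and 7.38 in P2, and 7.04, 6.82 and 7.32 in P3. No group overlapped with another, with P2 2 again the highest of the P2 rats. The log2 fold change was −1.46 ± 0.25 in P2 (adjusted p = 0.00801) and −2.24 ± 0.25 in P3 rats (adjusted p = 0.000151). Myl3, the slow essential light chain, was at 12.18, 12.27 and 12.14 in Fed, 11.19, 11.82 and 10.92 in P2, and 10.72, 10.35 and 10.29 in P3, again with no overlap. It fell by 0.89 ± 0.21 in P2 (adjusted p = 0.0322) and by 1.74 ± 0.21 in P3 (adjusted p = 0.000245, 3.34-fold). The P2 call of Myl3 was lost when any 1 of the arrays Fed 1, Fed 2, Fed 3, P2 1, P2 3, P3 2 or P3 3 was left out (adjusted p from 0.05001 to 0.110).

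The fast light chains lay near the top of the scale, and their changes were small. Mylpf was at 13.58, 13.55 and 13.60 in Fed, 13.52, 13.47 and 13.48 in P2, and 13.29, 13.23 and 13.21 in P3. It was lower in P3 than in Fed by 0.33 (adjusted p = 0.00244), with no overlap between groups. Myl1 was at 13.51, 13.46 and 13.47 in Fed, 13.45, 13.32 and 13.37 in P2, and 13.23, 13.24 and 13.20 in P3. Its change of −0.26 in P3 passed the test (adjusted p = 0.0124), but not after the arrays were quantile normalized once more (−0.15, adjusted p = 0.105). Ttn, the spring that spans from Z-disc to M-band, was at 13.26, 13.32 and 13.26 in P3 against 13.40, 13.43 and 13.33 in Fed, a log2 fold change of −0.11 with an interval of −0.25 to 0.03.

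**Figure D2:**
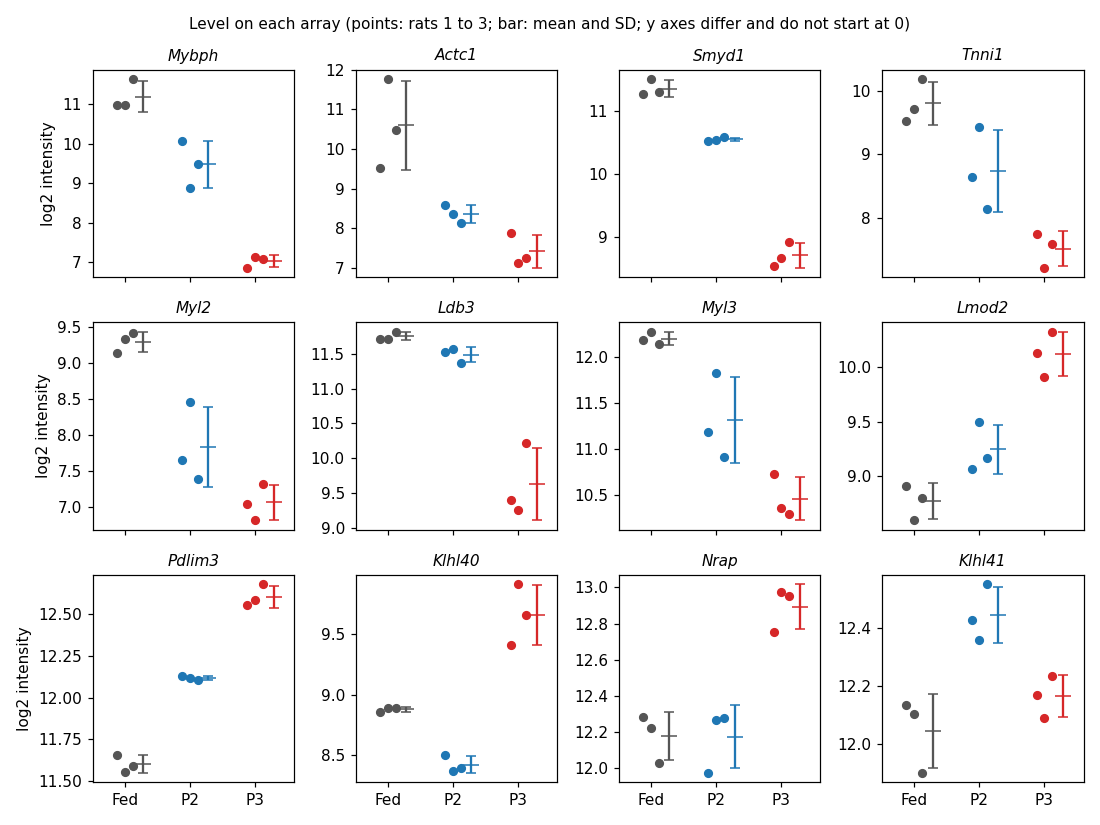
Log2 intensity on each of the 9 arrays for sarcomere genes with large changes, with a point per rat and, beside the points, the mean and SD of each group of 3, in the order Fed, P2 and P3. Mybph, Actc1, Smyd1 and Ldb3 are lowest in P3, Lmod2 and Pdlim3 highest, and Klhl40 is lowest in P2 and highest in P3.

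Slow and fast isoforms were set against each other within each array, as the log2 value of the slow isoform minus that of the fast one, which describes the pair on the intensity scale and does not show which gene changed. In P3 against Fed this difference fell in 5 of 8 pairs, with 95% intervals (6 residual degrees of freedom) that lay below 0. It changed by −1.90 (−2.65 to −1.16) for Myl2 over Mylpf, by −1.58 (−2.50 to −0.66) for Tnni1 over Tnni2 and by −1.48 (−2.13 to −0.84) for Myl3 over Myl1. The other falls were −0.91 (−1.59 to −0.23) for Tnnt1 over Tnnt3 and −0.87 (−1.71 to −0.02) for Tnnc1 over Tnnc2. These 5 pairs are troponins and light chains, and the fast partner had a fed mean of at least 13 in 4 of them, where the levelling off of intensities was not tested. For Mybpc1 over Mybpc2 the interval lay above 0 (0.38, 0.13 to 0.62), and for Tpm3 over Tpm1 it spanned 0 (0.12, −0.49 to 0.74). In P2 against Fed 4 intervals lay below 0, those of Myl2 (−1.38, −2.12 to −0.63), Myl3 (−0.79, −1.43 to −0.14), Tnni1 (−0.95, −1.87 to −0.03) and Tnnc1 (−0.85, −1.69 to −0.01) over their fast partners. The last pair of intervals ended close to 0, P2 and fed rats overlapped for Tnni1 over Tnni2, and without P2 3 the changes of Tnni1 and Tnnc1 over their partners were −0.68 and −0.64.

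Myozenins, Z-disc proteins that hold the phosphatase calcineurin, ran differently. Myoz2, the slow form, was at 10.64, 10.56 and 10.39 in Fed, 9.38, 10.36 and 9.44 in P2, and 10.82, 10.12 and 10.36 in P3. P3 and fed rats overlapped, and P2 1 and P2 3 lay below both, so that without P2 2 the P2 change was −1.13 (adjusted p = 0.0120) and with it −0.81 (adjusted p = 0.105). Myoz1, the fast form, was at 12.25, 12.24 and 12.33 in Fed, 12.48, 12.14 and 12.23 in P2, and 11.62, 11.42 and 11.56 in P3, and fell by 0.74 in P3 (adjusted p = 0.000419). The difference of Myoz2 and Myoz1 was higher in P3 than in P2 by 1.46 (0.58 to 2.34), the 1 pair of the 8 for which that interval lay above 0. Against Fed this difference changed by 0.64 (−0.24 to 1.52) in P3 and by −0.82 (−1.70 to 0.06) in P2. Both intervals spanned 0, though P3 and fed rats did not overlap in it.

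**Figure D3:**
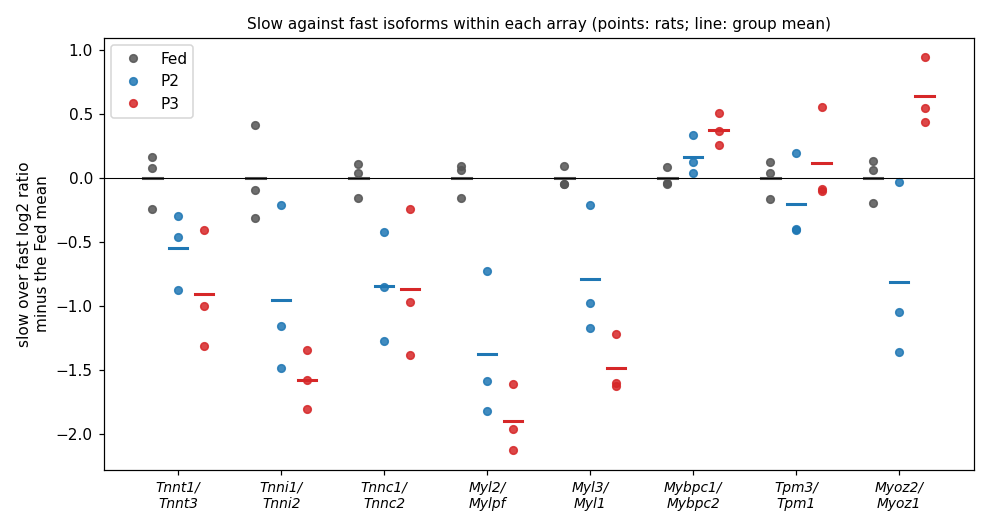
Slow minus fast log2 intensity of 8 isoform pairs on each array, shown relative to the mean of the fed rats, with the groups in the order Fed, P2 and P3. Myl2 over Mylpf, Tnni1 over Tnni2 and Myl3 over Myl1 lie lowest in P3, at mean differences from Fed of −1.90, −1.58 and −1.48, while Myoz2 over Myoz1 lies lowest in P2.

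As genes, 5 of the 8 slow isoforms and 6 of the 8 fast isoforms were lower in P3, where 13.4% of all probe sets were. In P2, where 4.15% of all probe sets were lower, 2 of the 8 slow isoforms were lower. Of the fast isoforms limma called 0 in P2, with 1 (Tpm1) at an unadjusted p under 0.05 and 0 called by the methods' analysis of variance and Tukey test. P2 2 was the highest of the P2 rats for 7 of the 8 slow isoforms, and P3 1 the highest of the P3 rats for 6. Among the fast isoforms P2 1 was the highest P2 rat for 7 of 8, and P3 1 the highest P3 rat for 4. For 8 of 8 markers of fibro-adipogenic cells and 5 of 5 endothelial markers, P2 2 was the highest P2 rat and P3 1 the highest P3 rat. Of 6 smooth muscle markers P2 2 was highest for 4 and P3 1 for 2, with P3 3 highest for the other 4. Of the 8 fibro-adipogenic markers 6, all but Pdgfra and Dcn, were lower in P3. The log2 of their summed intensities lay between 13.96 and 14.13 in Fed, 12.72 and 13.62 in P2, and 12.12 and 12.78 in P3. That of the endothelial markers lay between 11.25 and 11.35, between 11.13 and 11.88, and between 11.34 and 12.08 in the same order. The part of such cells in the isoform values was not tested. Without P2 2 and P3 1 together, the 41 genes gave 2 higher and 8 lower in P2 (4 calls lost, those of Actc1, Capzb, Klhl40 and Klhl41, and 5 gained, those of Tpm3, Tnni1, Tnnc1, Myoz2 and Mylk2), 4 higher and 24 lower in P3, and 5 higher and 15 lower in P3 against P2, and the log2 difference of Tnni1 and Tnni2 changed by −1.32 in P2 and −1.70 in P3.

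Among the myosin heavy chains, the motors whose isoform defines the fibre type, the slow and the embryonic forms fell. Myh7, the slow heavy chain, changed by −0.88 in P2 and −0.94 in P3 (adjusted p = 0.0336 and 0.00840), and Myh3, the embryonic one, by −1.48 and −1.61. Of the fast ones, Myh4 had a change of 0.01 and Myh1 of −0.09 in P3, and Myh2 had −0.58 (adjusted p = 0.0610), none of them called. The fed means of Myh4 (13.63) and Myh1 (13.40) lay above 13, where the levelling off of intensities was not tested. Myh3 lay between 6.31 and 6.47 in P3, not far above the array medians of 5.80 to 5.90.

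In the Z-disc, the LIM proteins that bind alpha-actinin moved in both directions. Ldb3, a PDZ and LIM protein whose loss in mouse breaks down Z-discs, was at 11.72, 11.72 and 11.82 in Fed, 11.53, 11.57 and 11.37 in P2, and 9.39, 9.26 and 10.21 in P3. All P3 rats lay more than a log2 unit below the others. Ldb3 fell by 2.13 ± 0.21 in P3 (adjusted p = 7.57e-05, 4.37-fold), against a change of −0.26 in P2 (adjusted p = 0.546). Pdlim3, also called ALP, was at 11.66, 11.55 and 11.59 in Fed, 12.13, 12.12 and 12.11 in P2, and 12.55, 12.58 and 12.68 in P3. Its 3 groups were narrow and separate, and Pdlim3 was the 1 gene higher in P2, higher in P3 and higher in P3 than in P2. It rose by 0.52 ± 0.07 in P2 (adjusted p = 0.00176) and by 1.01 ± 0.07 in P3 (adjusted p = 5.9e-06, 2.01-fold). Pdlim7, also called Enigma, fell by 1.60 ± 0.16 in P3 (adjusted p = 7.03e-05, 3.03-fold), and its P2 change of −0.49 passed without P2 1 (−0.70, adjusted p = 0.00285). Pdlim5 was not called (0.32 in P2 and 0.25 in P3).

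The scaffold of the Z-disc itself showed smaller values. Actn2 and Actn3, the alpha-actinins that cross-link actin, had log2 fold changes of −0.21 and −0.19 in P3, and Des, the intermediate filament desmin around the Z-disc, −0.09, none of them called. Myot, which binds alpha-actinin and filamin, fell by 0.62 in P3 (adjusted p = 0.000198), with 12.25, 12.25 and 12.39 in P3 rats against 12.97, 12.90 and 12.90 in fed rats. Nexn, an actin-binding protein of the Z-disc, fell by 0.62 as well (adjusted p = 0.00906). Myom1, which links myosin and titin in the M-band, was at 11.16, 11.44 and 11.17 in P3 rats against 11.86, 12.03 and 11.87 in fed rats, and fell by 0.67 (adjusted p = 0.000706). For Myot, Nexn and Myom1 the P2 changes were 0.10, −0.11 and −0.00, so the fall lay between P2 and P3.

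Among the genes of assembly and regulation, Smyd1, a muscle methyltransferase needed for myofibril assembly in zebrafish and mouse, had the smallest adjusted p of all 41 genes in P3. It was at 11.27, 11.50 and 11.29 in Fed, 10.52, 10.54 and 10.58 in P2, and 8.54, 8.67 and 8.92 in P3. The spread within each group was small against the steps between them. Smyd1 fell by 0.81 ± 0.11 in P2 (adjusted p = 0.00238) and by 2.64 ± 0.11 in P3 (adjusted p = 5.11e-07, 6.24-fold). Unc45b, the chaperone that folds the myosin head, fell by 0.81 in P3 (adjusted p = 0.00171) with a change of −0.08 in P2. Mylk2, the kinase of the skeletal regulatory light chain, was not called (0.27 in P2 and −0.15 in P3).

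Klhl40 and Klhl41, related Kelch proteins that stabilize components of the thin filament, moved in opposite directions in P2. Klhl40 was at 8.86, 8.89 and 8.89 in Fed, 8.50, 8.37 and 8.40 in P2, and 9.41, 9.91 and 9.65 in P3. It was the 1 gene of the 41 called in both phases with opposite signs, −0.46 ± 0.11 in P2 (adjusted p = 0.0400) and 0.78 ± 0.11 in P3 rats (adjusted p = 0.000796), and P3 was higher than P2 by 1.23 (adjusted p = 0.000138). Klhl41 was at 12.14, 12.10 and 11.90 in Fed, 12.43, 12.36 and 12.55 in P2, and 12.17, 12.09 and 12.23 in P3. P2 stood above both other groups, with a log2 fold change of 0.40 ± 0.09 (adjusted p = 0.0243), and P3 overlapped with Fed (0.12, adjusted p = 0.379). Both P2 calls were weak: that of Klhl40 was lost without any 1 of Fed 1, Fed 2, Fed 3, P2 2, P2 3 or P3 3 (adjusted p from 0.0664 to 0.120), and that of Klhl41 without Fed 2 (0.0568), Fed 3 (0.0731) or P2 3 (0.0881). With the replicate number as a block they were at 0.0770 (Klhl40) and 0.0645 (Klhl41). Nrap, an actin-binding scaffold of forming myofibrils and of fibre ends, was at 12.28, 12.22 and 12.03 in Fed, 11.97, 12.27 and 12.28 in P2, and 12.75, 12.98 and 12.95 in P3. Only P3 stood apart, and Nrap rose by 0.72 ± 0.11 there (adjusted p = 0.00112).

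Of the 27 genes called in P3 against Fed, 23 had a P2 mean between the fed and P3 means. A wide gap between those means makes this likely, and it was not counted over all probe sets. The count includes P2 changes near 0, such as those of Tmod4 (−0.01) and Myom1 (−0.003). By the 3 tests, Myl3, Mybph and Smyd1 were lower in P2, lower in P3 and lower in P3 than in P2. Actc1, Capzb and Myl2 were lower in both phases with no call between P3 and P2. The largest class held 14 genes that were lower in P3 than in both other groups and not called in P2, among them Tnni1, Tmod4, Ldb3, Pdlim7, Myoz1 and Unc45b. Lmod2 and Nrap had the same pattern upwards. Tnnt1, Tnnc1 and Myl1 were called in P3 against Fed alone, and Klhl41 in P2 against Fed alone. In 13 genes no contrast was called, among them Acta1, Ttn, Tnnt3, Tnnc2 (at the threshold in P3 against Fed), Actn2, Actn3 and Des.

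**Figure D4:**
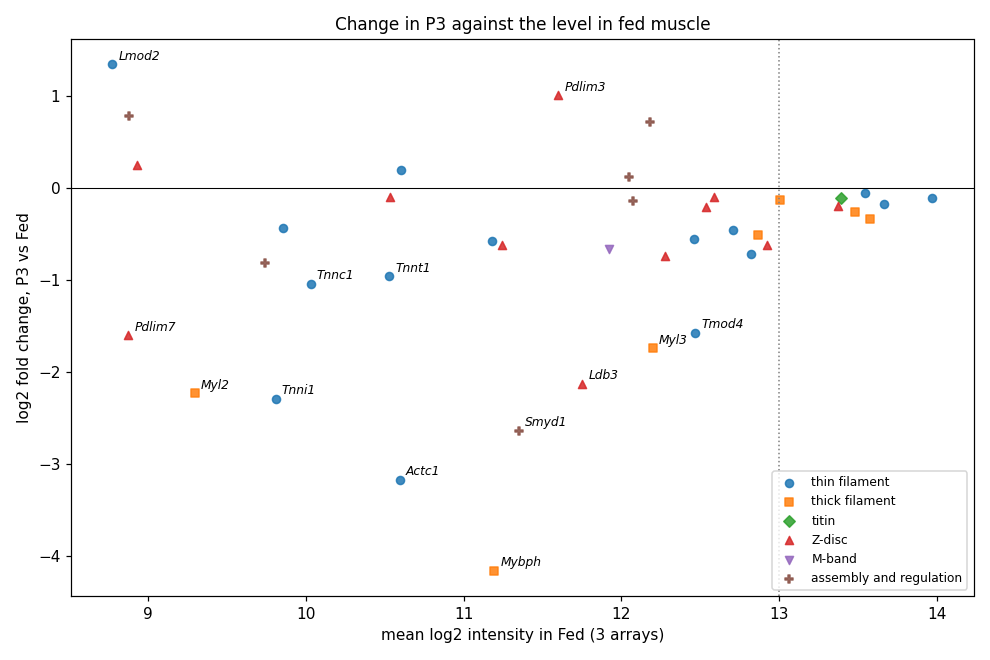
Log2 fold change in P3 against Fed (vertical axis) by mean log2 intensity in fed rats (horizontal axis), with a point for each of the 41 sarcomere genes, symbols and colours for the roles, and a dotted line at 13. The 8 genes with a fed mean of at least 13 lie within 0.33 of 0, and the changes beyond 1 in size belong to genes under 13.

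Other genes of the sarcomere or linked to it, ubiquitin ligases and chaperones among them, were taken as a list of 39 names outside the 49. Of these 29 were measured. In P3 against Fed 5 were higher and 8 lower (44.8% called, with 29.2% of all probe sets), and in P2 against Fed 4 were higher and 2 lower (20.7%, with 9.28% of all probe sets). Among those called, the genes that rose most in P3 were not filament parts: Fbxo32 (3.10) and Trim63 (2.58) are ubiquitin ligases of muscle atrophy, Trim54 (0.91) is a relative of Trim63 that binds microtubules, and Actn1 (0.62) is the non-muscle alpha-actinin. The called genes that fell most were Xirp2, an actin-binding protein of the Z-disc and fibre ends (−1.66), Cryab, a small heat shock protein that binds desmin (−1.14), Trim55 (−0.82) and Fhl1, a LIM protein (−0.80). Trim54 and Trim55, close relatives, thus moved in opposite directions in P3, as did Lmod2 and Tmod4, and Pdlim3 and Pdlim7, among the 41 genes.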

How the data were processed

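RNA of tibialis anterior was hybridised to 9 arrays, 1 per rat, 3 per group. The authors deposited log2 intensities per probe set, made with GCOS and Affymetrix Expression Console 1.1 (sketch quantile normalization, median polish as in RMA). Raw intensities were not used here. Such normalization holds the intensity distribution of the arrays alike, so values are relative to all probe sets. A probe set was given a gene where the platform annotation names 1 symbol (15310 probe sets, against 323 with several and 13582 with none), and symbols were updated through RefSeq (15279 matched). For a gene, the probe set with the highest mean was to be used.

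limma 3.58.1 (R 4.3.3; lmFit, eBayes) was fitted to all 29215 probe sets and 9 arrays, with Benjamini-Hochberg adjustment over all probe sets and a call at adjusted p under 0.05; the steps were tested on simulated data. The groups and 3 contrasts came from the labels. The prior added 2.87 degrees of freedom to 6 residual ones. The number of arrays limits the precision. The members, lists and tests were chosen with earlier results of these data known. Values per array are given for the isoforms of 8 slow and fast pairs and for up to 6 called genes of largest change per direction in P2 and in P3 against Fed; those of Acta1, Ttn, Tmod4, Myot and Myom1 were added after their values were seen. Of the other genes of the sarcomere or linked to it, up to 4 per direction are named. The rats were distributed to the groups at random, and no pairing by replicate number is described. Deviations from the group means correlated at −0.24 to 0.12 for same-numbered arrays and at −0.16 to 0.31 for the others. These deviations cancel within each group, so the correlations are tied to each other and cannot settle the matter. The alternatives were other scalings and filters, array weights, a replicate block, stricter thresholds, the methods' analysis of variance with Tukey's test, and leaving out each array.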

Additional observations from a re-analysis of the deposited data

How the results depend on the processing

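Of the 41 genes, none that was called in P2 or P3 against Fed changed sign under the alternatives run; single genes were not followed this way for P3 against P2. The counts of P3 against Fed were the most stable: leaving out 1 array gave 4 higher and 21 to 24 lower genes of the 41 and 7010 to 9267 probe sets, against 4, 23 and 8538 with all arrays. For P2 against Fed the same gave 1 to 2 higher, 3 to 8 lower and 1573 to 3364 probe sets (2, 7 and 2711 with all), the lowest being 1573 without Fed 2, 1627 without P2 3 and 1711 without Fed 3. For P3 against P2 it gave 4 to 5 higher, 13 to 18 lower and 3597 to 4419 probe sets. The median log2 fold change of the 41 genes lay between −0.13 and −0.07 in P2 and between −0.50 and −0.42 in P3. It was −0.50 in P3 both without P3 1 and without P2 2 and P3 1 together, a setting chosen after seeing the data.

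With array weights, P2 against Fed gave 4284 probe sets and 11 lower genes. Fitting only the groups compared left 1 higher gene in P2. With the replicate number as a block 1 higher gene was left in P2, where Klhl41, Klhl40 and Capzb lost their calls. No pairing of the rats by these numbers is described. At adjusted p under 0.01, P2 gave 1118 probe sets with 1 higher and 3 lower genes, and P3 against P2 2816 with 11 lower. A minimum change of 1.5-fold left 1437 probe sets and 0 higher genes in P2 (2 by the adjusted p alone), 5433 probe sets in P3, and 2750 in P3 against P2.

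The methods' analysis of variance with Tukey's test, at their threshold of 0.001, gave 660 probe sets with 1 higher and 1 lower gene in P2, 2813 with 2 and 14 in P3, and 1419 with 2 and 9 in P3 against P2. After Benjamini-Hochberg adjustment it gave 0 probe sets, 0 higher and 0 lower genes in P2, 849 with 1 and 2 in P3, and 98 with 0 and 0 in P3 against P2. This test does not moderate the variances across probe sets. Averaging the probe sets of each gene changed nothing, since each gene has 1.

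Limits: 3 rats per group, intensities near the ceiling for the brightest genes, and 8 genes with no value.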
